A study of Homo sapiens with 5 samples.

Results

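The genes described here are 10 members of the planar cell polarity pathway: the atypical cadherins CELSR1, CELSR2 and CELSR3, the membrane proteins VANGL1 and VANGL2, the receptors FZD3 and FZD6, and the cytoplasmic proteins PRICKLE1, DVL2 and SCRIB. They were found by gene symbol among the 18257 rows of the deposited count table. All 10 had a row, and all 10 were among the 12234 genes that passed the low-count filter, which asked for at least 1 CPM in 2 or more libraries (CPM are read counts scaled to a common library total, with TMM factors). The genes were chosen with earlier results from these same libraries in view, in particular the level of CELSR3 after DICER1 siRNA. The comparisons of the 10 genes are therefore descriptions, and no p-value supports them.

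Planar cell polarity is the alignment of cells within the plane of a sheet. CELSR cadherins join neighbouring cells through their extracellular repeats, and sort a complex of Frizzled and Dishevelled to one side of the cell and a complex of Vangl and Prickle to the other. In the nervous system CELSR2, CELSR3, FZD3 and VANGL2 guide axon tracts and neuronal migration, and CELSR1, VANGL2, SCRIB and FZD6 are known for neural tube closure or hair patterning.

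RNA was poly(A)-selected from HEK293, an embryonic kidney cell line with some neuronal gene expression, here the T-Rex FLP-IN strain with FLAG:DICER1, carried by every library, the control included. The groups were 1 mock transfection, 2 libraries of DICER1 knockdown and 2 libraries of DROSHA knockdown, all labelled as 18 h. Both targets are nucleases that make microRNAs, and the design text names mock and DROSHA knockdown as the controls for DICER1. Whether the tagged DICER1 was switched on is not stated. Within a group each library had its own siRNA, so the spread within a pair holds the difference between siRNAs. Nothing says whether the cultures were separate, so errors measure the spread between these libraries only.

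Library totals lay between 7620206 and 8736455 counts. The targeted mRNAs followed the labels: DICER1 stood at 30.5% and 27.9% of the mock in the DICER1 libraries, and DROSHA at 21.5% and 21.9% in the DROSHA libraries. Reads of the native and the tagged DICER1 were not separated. DROSHA siRNA 2 stood apart from the other libraries: over all genes its chi-square per degree of freedom was 7.36 to 9.5 against each of them, while the other pairs had 2.61 to 5.78. All 10 markers of the line were detected in every library. Of 8 markers of other cell types in the table, PTPRC, COL1A2 and MYH6 had 0 counts in every library, and the leading marker was HBB with 169 to 215 counts. Across all tested genes, edgeR's quasi-likelihood test called only the siRNA targets: DICER1 or DROSHA in the comparison of its own knockdown with the mock (1 gene, 0.00817%), and both in DICER1 against DROSHA (2 genes, 0.0163%).

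CELSR3 was the member with the widest range, and its upstream sequence is shown because the genes nearest to it in profile include neuronal genes. REST, the repressor that keeps neuronal genes silent in other cells, binds a DNA element called RE1, made of a left element, 2 free bases and a right element. In RefSeq's table for GRCh38.p14, the 250 bases before the CELSR3 start lie at chr3:48662887-48663136 on the minus strand. Printed 5′ to 3′ along the gene, with capitals at an exact match to the right element (the capitals nearer the 5′ end) and to the left element (TTCAGCACC), they read:

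CELSR3: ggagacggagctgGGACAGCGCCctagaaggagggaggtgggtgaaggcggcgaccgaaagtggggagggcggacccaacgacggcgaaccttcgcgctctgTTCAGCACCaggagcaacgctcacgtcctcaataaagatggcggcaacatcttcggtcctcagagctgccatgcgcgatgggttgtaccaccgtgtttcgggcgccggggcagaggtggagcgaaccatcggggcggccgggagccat

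The right element began 237 bases and the left element 148 bases before the start, both on the gene's strand and in the reverse of their order in RE1. Both strands of 35116 such windows were searched. The left element was found in 0.288% of them, the right element in 0.199% and either in 0.478%. Only 3 genes had both in a window: CELSR3, GRIA2 and LHX3, and in GRIA2 and LHX3 they formed the joined RE1. Of the 10 genes 6 had a window in the table, and the other 5 (CELSR2, VANGL1, VANGL2, PRICKLE1 and DVL2) held neither element. An element was found in 0 of the 5 genes whose profile was nearest to CELSR3, all of which had a window, and in 2 of 20 neuronal marker genes with a window, SYN1 and VGF. The RE1 letters were added after the values of REST were seen, so these shares of windows are descriptions. A match to letters does not show binding.

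CELSR3 had 239 counts in the mock, 422 and 754 in the DICER1 libraries and 268 and 196 in the DROSHA libraries. In CPM the mock had 28.4, DICER1 siRNA 1 had 55.2, DICER1 siRNA 2 had 90.7, DROSHA siRNA 1 had 30.8 and DROSHA siRNA 2 had 24.99. The DICER1 libraries lay above all others, and the DROSHA libraries lay on either side of the mock.

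DICER1 siRNA 1 held CELSR3 at 1.94 times and DICER1 siRNA 2 at 3.19 times the mock level. The mean was 73.0 ± 25.1 CPM (SD, n = 2) after DICER1 siRNA and 27.9 ± 4.09 CPM after DROSHA siRNA. The fitted log2 fold change was 1.36 ± 0.31 (SE) in DICER1 against mock and -0.03 ± 0.31 in DROSHA against mock. Set against the DROSHA libraries, the DICER1 libraries were higher by 1.39 ± 0.24. In DICER1 against mock it was 1.67 without siRNA 1 and 0.96 without siRNA 2.

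The level of CELSR3 with DICER1 siRNA 2 was 1.64 times that with siRNA 1, with an exact 95% interval from 1.46 to 1.86. The same ratio was 0.885 for CELSR1 (0.805 to 0.972), 0.888 for CELSR2 (0.800 to 0.986) and 1.23 for FZD6 (1.05 to 1.44). These intervals cover counting error only, and every pair of libraries differed by more than that over all genes. DICER1 mRNA itself was at similar levels in these libraries, 74.1 and 67.7 CPM. In the DROSHA pair the CELSR3 ratio was 0.812, with an interval from 0.672 to 0.980.

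**Figure D1:**
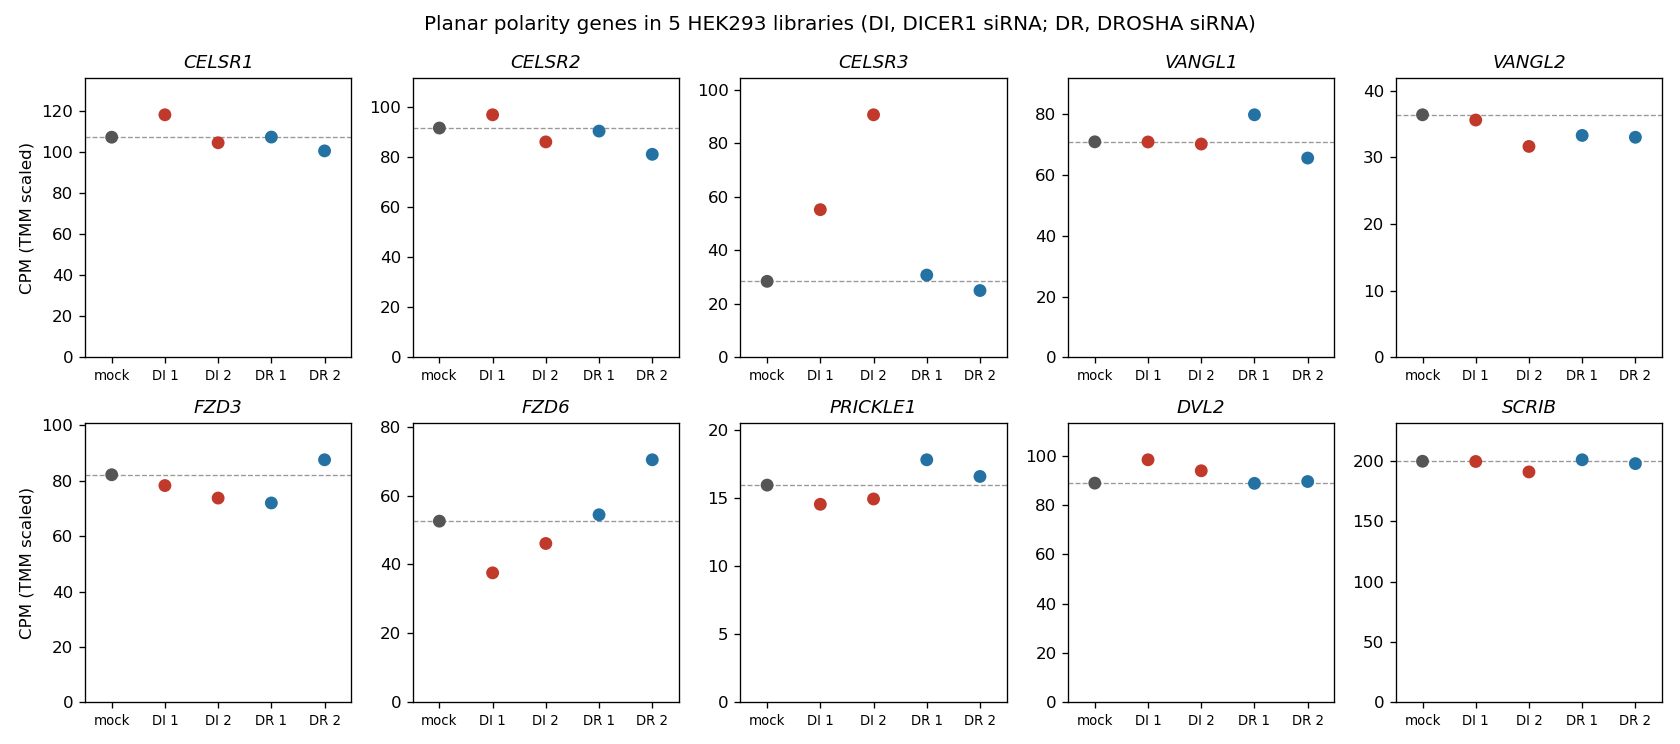
CPM (TMM scaled, linear axis from 0) of the 10 planar polarity genes in the mock (grey), DICER1 siRNA 1 and 2 (DI, red) and DROSHA siRNA 1 and 2 (DR, blue). Each point is 1 library and the dashed line is the mock level. CELSR3 stood at 55.2 and 90.7 CPM in the DICER1 libraries against 28.4 in the mock.

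The other CELSR cadherins did not share this range. CELSR1, which acts in epithelia, stood at 107.4 CPM in the mock, 118.3 and 104.7 with DICER1 siRNA and 107.5 and 100.7 with DROSHA siRNA. CELSR2 stood at 91.6 CPM in the mock, 96.9 and 86.0 with DICER1 siRNA and 90.4 and 81.1 with DROSHA siRNA. For both genes the DICER1 libraries fell on either side of the mock.

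CELSR1 had a log2 fold change of 0.05 ± 0.11 in DICER1 against mock, with an unadjusted 95% interval from -0.22 to 0.33. For CELSR2 it was -0.003 ± 0.12, with an interval from -0.30 to 0.29. These intervals use the spread of all genes and assume that the single mock varies like the siRNA libraries.

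The make-up of CELSR reads moved with CELSR3. CELSR3 held 12.5% of the 1912 CELSR reads in the mock (95% Wilson interval 11.1 to 14.1%), 20.4% and 32.2% in the DICER1 libraries and 13.5% and 12.1% in the DROSHA libraries. With DICER1 siRNA 2 its share, with an interval from 30.4 to 34.2%, was on a level with that of CELSR2, 30.6% (28.7 to 32.5%). CELSR1 held the largest share in every library. All CELSR reads together came to 227.4 CPM in the mock, 270.4 and 281.4 with DICER1 siRNA and 228.6 and 206.8 with DROSHA siRNA.

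**Figure D2:**
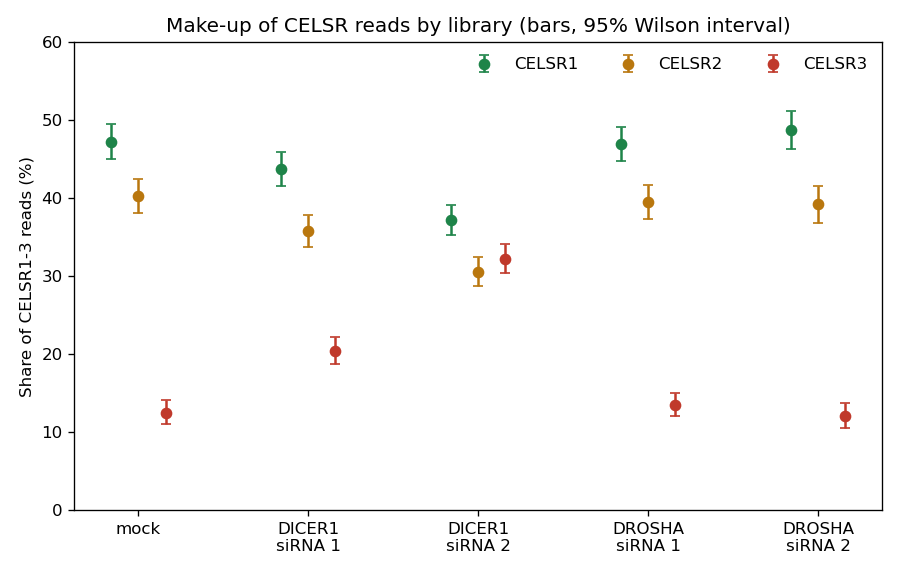
Share of all CELSR1, CELSR2 and CELSR3 reads (percent, axis from 0) held by each gene in each of the 5 libraries. Bars are 95% Wilson intervals, which cover counting error only. The CELSR3 share was 12.5% in the mock and 32.2% with DICER1 siRNA 2.

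By the rule of smallest distance, the 5 genes whose profile lay nearest to CELSR3 were L1CAM, TMEM198, SRRM3, CHGA and BSN. The measure was the Euclidean distance of log2 CPM centred on the mock, over 5 libraries and among 10614 other genes whose mean was 5 CPM or more. Distances ran from 0.25 for L1CAM, a neuronal adhesion molecule, to 0.43 for BSN, a scaffold of the presynaptic active zone. L1CAM, CHGA and BSN are also in the list of neuronal markers described next. SRRM3 is a splicing factor of neuronal microexons and CHGA a cargo of secretory granules. BSN stood at 16.8 CPM in the mock, 27.0 and 47.2 with DICER1 siRNA and 17.6 and 12.2 with DROSHA siRNA.

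REST had 50.8 CPM in the mock, 46.7 and 34.1 with DICER1 siRNA and 52.2 and 70.9 with DROSHA siRNA. Its lowest library, DICER1 siRNA 2, was the one with the highest CELSR3, and its highest library, DROSHA siRNA 2, the one with the lowest CELSR3. With DROSHA siRNA 1 both genes lay above the mock, REST at 102.9% and CELSR3 at 108.2% of it. The log2 fold change of REST was -0.33 ± 0.24 in DICER1 against mock, 0.28 ± 0.24 for DROSHA and -0.61 ± 0.20 between the knockdowns. Without DROSHA siRNA 2 it was 0.04 for DROSHA and -0.38 between the knockdowns. Without DICER1 siRNA 2 it was -0.12 in DICER1 against mock and -0.40 between the knockdowns, and without DICER1 siRNA 1 it was -0.58 in DICER1 against mock. Without DROSHA siRNA 1 it was 0.48 for DROSHA. REST was chosen after its values were seen, and its part in the level of CELSR3 was not tested.

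Most neuronal markers tested lay above the mock where CELSR3 did, in the DICER1 libraries. The list was chosen with earlier results of these same libraries known, so its counts beside shares of all genes are descriptions. Of 28 such genes 21 were tested, and in both DICER1 libraries 16 lay above the mock (36.7% of all tested genes did) and 2, RTN1 and UCHL1, below it (36.4%). In both DROSHA libraries 2 lay above the mock (31.5%) and 11 below it (32.5%), whereas CELSR3 lay on either side. The summed level of the list was 1185 CPM in the mock, 1301 and 1451 with DICER1 siRNA and 1173 and 1030 with DROSHA siRNA. UCHL1, a ubiquitin hydrolase abundant in neurons, made up 726 CPM of the mock sum. Without UCHL1 the sums were 459 CPM in the mock, 616 and 767 with DICER1 siRNA and 451 and 341 with DROSHA siRNA. The 10 markers of the HEK293 line were ordered alike, except that DROSHA siRNA 1 lay above the mock. Their summed levels were 1062 CPM in the mock, 1134 and 1189 with DICER1 siRNA and 1068 and 998 with DROSHA siRNA. The lists are not separate, as both hold NEFL and NEFM. NEFL had 1080 counts in the mock, 1153 and 1455 with DICER1 siRNA and 1204 and 826 with DROSHA siRNA. The neuronal list's median log2 fold change was 0.51 in DICER1 against mock and -0.16 in DROSHA against mock. Over all tested genes these medians were 0.0005 and -0.005. Without DROSHA siRNA 2 the neuronal median in DROSHA against mock was -0.005, with 10 of 21 genes above 0. Without DROSHA siRNA 1 it was -0.29. ELAVL4, a defining marker of neurons, had 0 counts in every library, and STMN2 and DCX reached at most 2 and 1. The part of these genes in the CELSR3 result was not tested.

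Of the 16 neuronal genes above the mock, 15 were higher with DICER1 siRNA 2 than with siRNA 1, the order that CELSR3 showed. Among the 4488 tested genes above the mock in both DICER1 libraries, 56.8% had this order. In DICER1 against mock 0 of the 21 were called by edgeR's quasi-likelihood test. Of the 21, 10 had an unadjusted p under 0.05, all higher, where 5.46% of all tested genes had such a p. Because the list was chosen with earlier results known, these counts do not test it. The likelihood ratio test called 5 of the 21 and 0.237% of all tested genes, and DESeq2 called 1 of the 21 and 0.0409% of all. CPLX2, a regulator of synaptic vesicle release, had a log2 fold change of 2.75 ± 0.46 and SCG3, a granule protein, one of 1.62 ± 0.35.

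**Figure D3:**
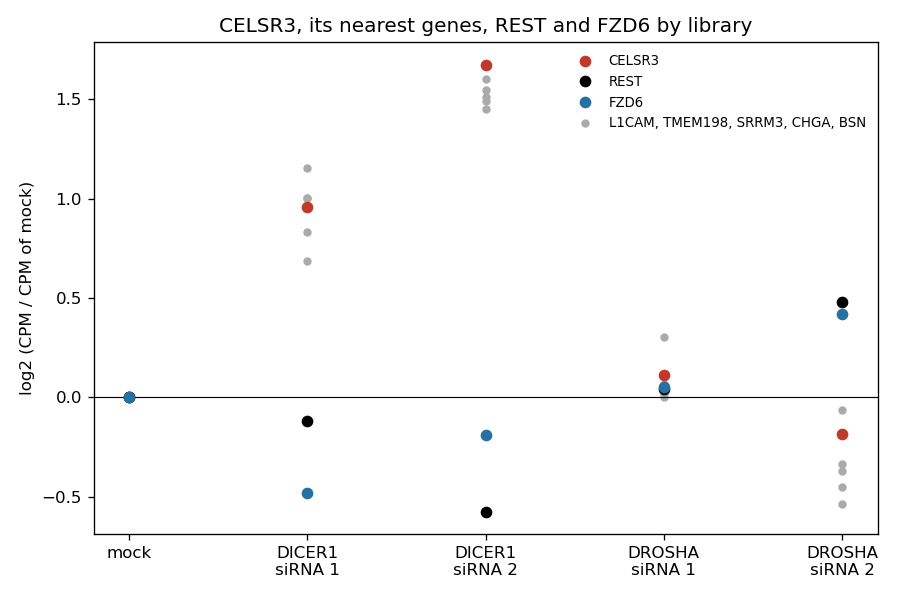
Log2 ratio of CPM to the mock in the 5 libraries for CELSR3 (red), REST (black), FZD6 (blue) and the 5 genes nearest to CELSR3 (grey). Each point is 1 gene in 1 library. In DICER1 siRNA 2 CELSR3 lies at 3.19 times the mock, and REST lies below the mock, at 67.1% of it. The grey genes were picked for their closeness to CELSR3 in these same libraries.

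The genes of the Vangl proteins, which recruit Prickle, stood at 87.0% to 112.5% of the mock in the siRNA libraries. VANGL1 stood at 71.0 CPM in the mock, 70.9 and 70.3 with DICER1 siRNA and 79.9 and 65.7 with DROSHA siRNA. VANGL2, the form tied to neural tube closure, stood at 36.4 CPM in the mock, 35.6 and 31.6 with DICER1 siRNA and 33.3 and 33.0 with DROSHA siRNA. All 4 siRNA libraries lay below the single mock library for VANGL2, with log2 fold changes of -0.12 ± 0.13 in DICER1 against mock and -0.13 ± 0.13 in DROSHA against mock. These comparisons share the mock.

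The receptors differed. FZD3, the partner of CELSR3 in axon guidance, stood at 82.2 CPM in the mock, 78.3 and 73.8 with DICER1 siRNA and 72.0 and 87.6 with DROSHA siRNA, so that the DROSHA libraries held both its lowest and its highest value. FZD6, the receptor of hair follicle and nail polarity, stood at 52.6 CPM in the mock, 37.6 and 46.1 with DICER1 siRNA and 54.4 and 70.4 with DROSHA siRNA. The DICER1 libraries of FZD6 lay below the mock and the DROSHA libraries above it.

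Both DICER1 below and both DROSHA above the mock held for 4.49% of all tested genes, and the reverse for 5.03%. For FZD6 the log2 fold change was -0.33 ± 0.19 in DICER1 against mock, 0.25 ± 0.19 for DROSHA and -0.57 ± 0.16 between the knockdowns. The last of these was -0.38 without DROSHA siRNA 2 and -0.75 without DROSHA siRNA 1. The value for DROSHA was 0.05 without DROSHA siRNA 2 and 0.42 without siRNA 1, and that in DICER1 against mock was -0.19 without DICER1 siRNA 1. Like REST, FZD6 was highest with DROSHA siRNA 2, but its lowest library was DICER1 siRNA 1 and not siRNA 2. The ratio of siRNA 2 to siRNA 1 was 1.29 in the DROSHA pair, with an exact 95% interval from 1.14 to 1.47.

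PRICKLE1, the LIM-domain partner of Vangl, was low at 15.9 CPM in the mock, 14.5 and 14.9 with DICER1 siRNA and 17.8 and 16.6 with DROSHA siRNA. Its DICER1 libraries also lay below and its DROSHA libraries above the mock, by less than the error of the fit, with a log2 fold change of -0.22 ± 0.13 in DICER1 against DROSHA. PRICKLE1 shares 438 exonic bases with PPHLN1 and 1858 with AC079601.1, both on the other strand in GENCODE 29. FZD6 shares 138 exonic bases with BAALC-AS1, also on the other strand. AC079601.1 and BAALC-AS1 were not rows of the table. No source used here gives the strand setting of the counting.

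DVL2, a Dishevelled protein that carries the Frizzled signal, stood at 88.8 CPM in the mock, 98.3 and 93.8 with DICER1 siRNA and 88.7 and 89.5 with DROSHA siRNA. Both DICER1 libraries lay above the mock, with a log2 fold change of 0.11 ± 0.10. SCRIB, a scaffold shared by planar and apical-basal polarity, had the highest CPM of the 10, with 199.8 in the mock, 199.6 and 190.9 with DICER1 siRNA and 201.0 and 197.8 with DROSHA siRNA. Its log2 fold changes were -0.03 ± 0.08 in DICER1 against mock and -0.003 ± 0.08 in DROSHA against mock, the smallest standard errors of the 10 genes.

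**Figure D4:**
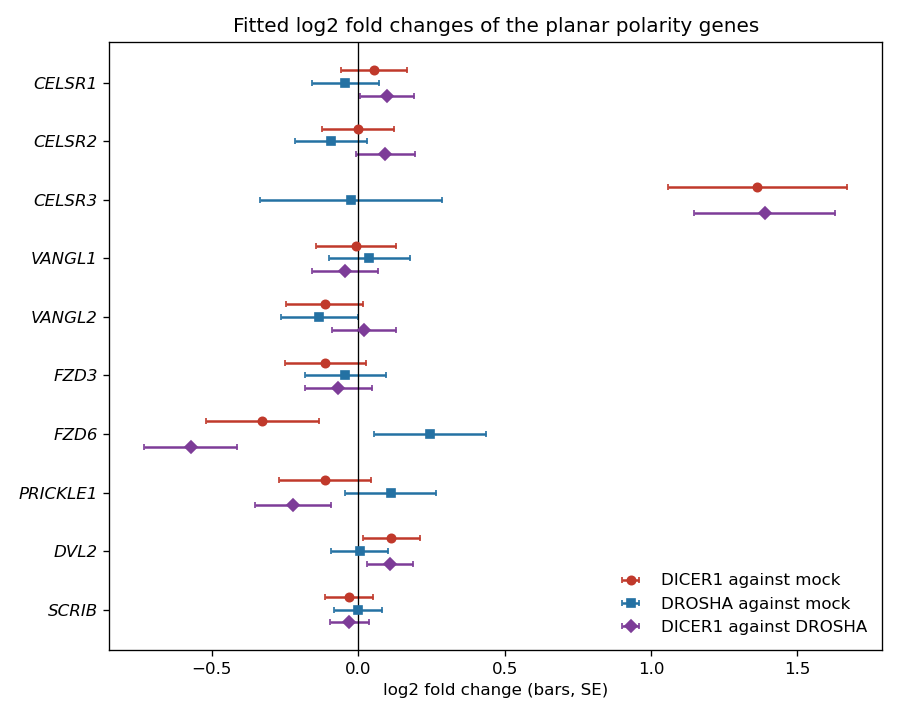
Fitted log2 fold changes of the 10 genes in DICER1 against mock (circles), DROSHA against mock (squares) and DICER1 against DROSHA (diamonds), with bars of 1 SE. CELSR3 stands at 1.36 and 1.39 in the comparisons that involve DICER1 siRNA, and FZD6 at -0.57 in DICER1 against DROSHA.

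Of the 10 genes, 2 were higher than the mock in both DICER1 libraries (CELSR3 and DVL2), where 36.7% of all tested genes were, and 6 were lower in both, where 36.4% were. In DROSHA against mock 2 were higher in both libraries (FZD6 and PRICKLE1; 31.5% of all genes) and 2 lower (CELSR2 and VANGL2; 32.5%). In DICER1 against DROSHA 2 were higher without overlap (CELSR3 and DVL2; 20.9% of all genes) and 2 lower (FZD6 and PRICKLE1; 20%). The quasi-likelihood test called 0 of the 10 in each of the 3 comparisons. DESeq2 and the likelihood ratio test each called CELSR3 alone of the 10 where DICER1 knockdown was compared. As the level of CELSR3 was in view when the genes were chosen, these calls do not support it. DESeq2 called 0.0409% of all tested genes in DICER1 against mock, 0.00817% for DROSHA and 0.196% between the knockdowns, and the likelihood ratio test 0.237%, 0.0245% and 1.06%. At an unadjusted p under 0.05 there were 1, 0 and 2 of the 10, where 5.46%, 3.69% and 8.34% of all tested genes were. The median log2 fold change of the 10 was -0.02 in DICER1 against mock, -0.01 for DROSHA and -0.006 between the knockdowns, beside 0.0005, -0.005 and 0.004 over all tested genes.

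Per length of the longest coding transcript in GENCODE 29, SCRIB and DVL2 were the most abundant in the mock, at 38.3 and 29.4 RPKM (CPM divided by length in kilobases). FZD6 followed at 13.9 RPKM, then CELSR1 at 9.43, CELSR2 at 8.69 and VANGL1 at 8.17. VANGL2 stood at 6.81 RPKM, FZD3 at 5.98, PRICKLE1 at 2.70 and CELSR3, the lowest, at 2.38. Exact 95% counting intervals overlapped between CELSR1 (8.82 to 10.1) and CELSR2 (8.09 to 9.33), and between CELSR2 and VANGL1 (7.53 to 8.85). They also overlapped between VANGL1 and VANGL2 (6.07 to 7.62), between VANGL2 and FZD3 and between PRICKLE1 and CELSR3. An overlap does not show equal levels. Over all libraries VANGL1 ranged from 7.55 to 9.19 RPKM and VANGL2 from 5.93 to 6.81. In the DICER1 libraries CELSR3 reached 4.62 and 7.59 RPKM, which took it from rank 10 to rank 8 by its mean. Lengths come from GRCh38, whereas the submitters' processing notes name hg19.

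Other genes of the pathway lay on both sides of the mock. In 7 lists of related genes, 132 genes were tested and none passed edgeR's quasi-likelihood test in any comparison. In DICER1 against mock 4 had an unadjusted p under 0.05 on the higher side and 5 on the lower side, beside 5.46% of all tested genes on either side, and DESeq2 and the likelihood ratio test called 0. In DROSHA against mock 3 had such a p (3.69% of all tested genes), with 0 calls by either tool. Between the knockdowns 14 had such a p (8.34% of all tested genes), with 0 calls by DESeq2 and 3 by the likelihood ratio test. Their median log2 fold change was 0.002 in DICER1 against mock and -0.02 in DROSHA against mock.

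Among 19 other core planar polarity genes the median log2 fold change was 0.01 in DICER1 against mock, with 8 higher and 6 lower in both libraries, beside 36.7% and 36.4% of all tested genes. ROR2, a receptor for WNT5A, had 18.3 CPM in the mock, 23.6 and 25.7 with DICER1 siRNA and 24.2 and 22.4 with DROSHA siRNA, so all 4 siRNA libraries lay above the mock. Its log2 fold change was 0.43 ± 0.15 in DICER1 against mock and 0.35 ± 0.15 in DROSHA against mock, not past the test.

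Of 27 Wnt ligands and further Frizzled receptors 19 were tested. The ligand WNT5B stood at 19.4 CPM in the mock, 14.1 and 13.6 with DICER1 siRNA and 21.4 and 21.4 with DROSHA siRNA, with a log2 fold change of -0.63 ± 0.12 in DICER1 against DROSHA. WNT5B did not pass the quasi-likelihood test there, and the likelihood ratio test called it. WNT5A stood at -0.22 ± 0.15 in DICER1 against mock.

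Of the downstream effectors 18 were tested, with 9 higher and 5 lower in both DICER1 libraries, beside the same 36.7% and 36.4% of all tested genes. DAAM1, the formin that links Dishevelled to RHOA, stood at 26.3 CPM in the mock, 27.5 and 30.2 with DICER1 siRNA and 21.1 and 19.1 with DROSHA siRNA. Its log2 fold change was 0.52 ± 0.12 in DICER1 against DROSHA, not past the quasi-likelihood test and called by the likelihood ratio test. Of the canonical Wnt genes 27 were tested, and the tankyrase TNKS2, which marks AXIN for destruction, stood at 197.8 CPM in the mock, 145.2 and 90.5 with DICER1 siRNA and 213.3 and 247.7 with DROSHA siRNA. In DICER1 against DROSHA the log2 fold change of TNKS2 was -0.97 ± 0.20, with the same calls as DAAM1.

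Relatives of the CELSR cadherins gave values of both signs. Of the other adhesion G protein-coupled receptors 11 were tested, with a median log2 fold change of 0.006 and a range from -0.31 to 0.37 in DICER1 against mock. Of other cadherins 20 were tested, with a median of -0.01 and a range from -0.61 for PCDH7 to 0.52 for CDH24 in that comparison. In DICER1 against DROSHA 9 of the 20 were higher without overlap (20.9% of all tested genes) and 3 lower (20%), with a median of 0.03. There 4 had an unadjusted p under 0.05 on the higher side and 1 on the lower side (8.34% of all tested genes on either side). The quasi-likelihood test, DESeq2 and the likelihood ratio test called 0 of them. PCDH7, a protocadherin, stood at 107.4 CPM in the mock, 83.4 and 57.3 with DICER1 siRNA and 105.3 and 107.0 with DROSHA siRNA. Of 18 apical-basal polarity genes, LLGL2, a partner of SCRIB, had 0.56 ± 0.16 in DICER1 against mock.

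**Figure D5:**
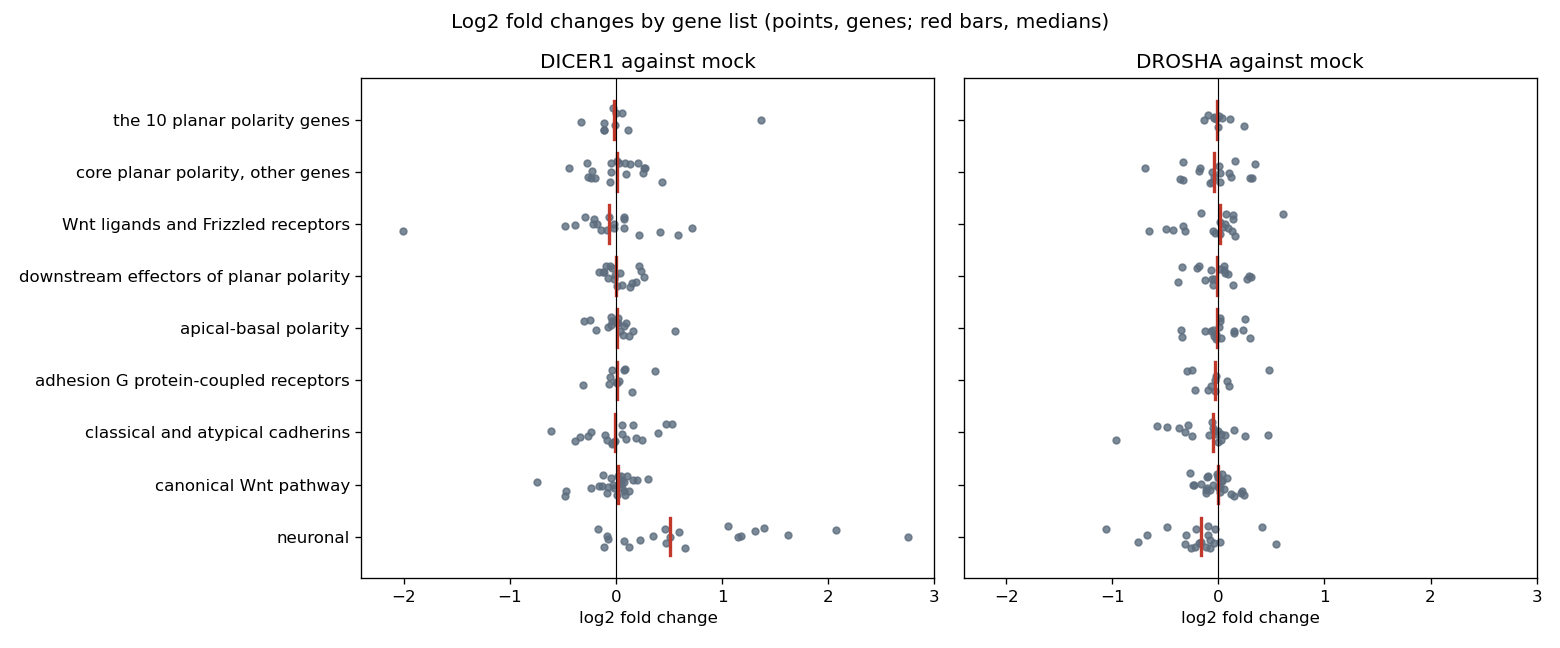
Log2 fold changes of single genes (points) in 9 lists, in DICER1 against mock (left) and DROSHA against mock (right), with the list median as a red bar. CELSR3, at 1.36, lies apart from the other planar polarity genes, and the neuronal list has a median of 0.51 in DICER1 against mock.

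Since both siRNA targets act in microRNA production, the 3′ UTRs of the 10 genes were searched for matches to the seed (bases 2 to 8, in capitals) of 6 microRNA families common in dividing cells. The miR-17 sequence from RefSeq is shown with the CELSR2 site, the only match in the CELSR family, and with a VANGL1 site. Sites are capitals within the reference transcript, 5′ to 3′.

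hsa-miR-17-5p: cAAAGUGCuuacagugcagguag
CELSR2: ttcccctcactGCACTTTggacccctggg
VANGL1: tttgaccatctGCACTTTatttggaagga

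The miR-17 match (GCACTTT) was found in 25.4% of the 3′ UTRs of 11507 tested genes. CELSR1, CELSR3, PRICKLE1, DVL2 and SCRIB had no match to any of the 6 families, as did 43.0% of all genes. FZD3 had 7 matches in 11256 bases, VANGL1 4 in 6845 bases, VANGL2 2 in 3300 bases and CELSR2 1 in 1701 bases. FZD6 had 4 matches in 1350 bases, each to a different family. Over all 11507 3′ UTRs the median was 1 match and the median length 1402 bases. The level of FZD6 was lower than the mock in both DICER1 libraries and higher in both DROSHA libraries. A link between the matches and this level was not tested. Matches are descriptions, and no match says only that these letters were not in the transcript used.

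In the annotation 2 of the 10 genes overlap a microRNA hairpin on their own strand: SCRIB shares 18 bases with MIR937, and CELSR3 overlaps MIR4793. MIR4793, at chr3:48644194-48644280 of GRCh38 on the minus strand, shares 65 bases with exons of CELSR3 and touches exon 27 of 35 in its longest coding transcript. Neither hairpin was a row of the table. CELSR3 in the DROSHA libraries stood at 108% and 87.9% of the mock.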

How the data were processed

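Poly(A) RNA was measured in 5 HEK293 libraries. The authors deposited 1 table of raw counts of reads per gene symbol; the tools named, per the submitters' processing notes, are STAR, HTSeq, edgeR and CASAVA 1.8.2, without roles, and the build is hg19. Of 18257 genes 2602 had no read, and 0 columns were unused. A gene was kept if 2 or more libraries reached 1 CPM (12234). edgeR 4.0.16 in R 4.3.3 gave TMM factors and quasi-likelihood F tests, with group as the only term, all 5 libraries in 1 fit, 2 residual degrees of freedom and Benjamini-Hochberg adjusted p under 0.05 as the call. SE was taken as the fold change on the log2 scale over the root of the F statistic. Alternatives were DESeq2 1.42.0, the likelihood ratio test, other scalings, no filter and leaving out libraries. Leaving out libraries for the neuronal list and REST, and UCHL1 for the list's sum, were chosen after seeing the data.

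The members and lists were chosen with earlier results of these data known. Named genes were the 10 members, DICER1, DROSHA, up to 4 genes per list by smallest p whose mean reached 5 CPM, and the 5 genes nearest to CELSR3; REST was added after its values were seen, and the RE1 letters likewise. Log2 CPM for distances used a prior count of 2. No pair of libraries agreed within counting noise (chi-square per degree of freedom from 2.61 to 9.5, the 4 highest all with DROSHA siRNA 2). Simulated data held 200 changed genes of 12234. There DICER1 against mock called 41.8% of genes changed 1.5-fold and 92.5% of those changed 2-fold, with 8 of 164 calls false. The simulation drew its spread from the fitted trend over all genes, without spread particular to single genes or siRNAs. These shares therefore do not say how many real changes the test would miss. Transcripts and lengths are from GENCODE 29, sequences from RefSeq.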

Additional observations from a re-analysis of the deposited data

Results flagged for a closer look

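FZD6 and PRICKLE1 were picked out because both DICER1 libraries lay below the mock and both DROSHA libraries above it, which held for 4.49% of all tested genes. FZD6 had a log2 fold change of -0.328 in DICER1 against mock and 0.245 in DROSHA against mock. Without DICER1 siRNA 1 the former was -0.193, and without DROSHA siRNA 2 the latter was 0.0527, so its size rests on that library. The difference between them, -0.57 ± 0.16, was not called by the quasi-likelihood test (edgeR adjusted p = 0.488). PRICKLE1 had -0.114 and 0.110 in the same comparisons, the latter being 0.0532 without DROSHA siRNA 1, with a difference of -0.22 ± 0.13 (edgeR adjusted p = 0.679). Both comparisons share the single mock, and the genes were chosen with results of these libraries known.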

How the results depend on the processing

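The number of genes called in DICER1 against mock was 1 and became 3 with no low-count filter, 5 with DESeq2, 29 with the likelihood ratio test and 0 to 5 when single siRNA libraries were left out. In DROSHA against mock it was 1, 3 with the likelihood ratio test, and 1 to 225 with libraries left out, the 225 being without DROSHA siRNA 1. In DICER1 against DROSHA it was 2, 12 with no filter, 24 with DESeq2, 130 with the likelihood ratio test, and 1 to 427 with libraries left out, again highest without DROSHA siRNA 1. The siRNA numbers name different molecules and do not pair libraries: deviations of same-numbered libraries had a correlation of 0.0243 over genes. With the siRNA number as a replicate block on the 4 siRNA libraries, 4 genes were called in DICER1 against DROSHA, against 2 without the block, and CELSR3 stood at 1.35. RLE factors, library totals alone and the 4 siRNA libraries alone left these counts as they were wherever they were run.

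CELSR3 kept its sign in every alternative in DICER1 against mock (0.96 to 1.67) and in DICER1 against DROSHA (0.98 to 1.70). It was called in DICER1 against mock by DESeq2 (adjusted p = 0.0209) and the likelihood ratio test (0.0184), over a range from 0.0184 to 1 with 0.865 as reported. In DICER1 against DROSHA it was called by both tools. The genes were chosen with the level of CELSR3 in these libraries in view, so these calls do not support it. Without DROSHA siRNA 1, where siRNA 2 was the only DROSHA library left, CELSR3 stood at 1.55 and FZD6 at -0.75 in that comparison. Over the 10 genes and all alternatives 6 of 90, 10 of 90 and 4 of 110 values changed sign in DICER1 against mock, DROSHA against mock and DICER1 against DROSHA, none with a reported size above 0.07. Depth limits PRICKLE1 most, with 111 to 155 counts. The single mock limits every comparison with it.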
